A study of Mus musculus with 4 samples.

Results

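Summits of dimeric p53 and of PPAR-alpha were listed at the 5 genes that encode the CD3 signalling chains and the pre-T alpha chain of the T cell receptor, Cd3e, Cd3d, Cd3g, Cd247 and Ptcra. The genes were fixed by name, 5 of the 21887 protein-coding genes of the mouse RefSeq annotation of GRCm38.p6, and every summit inside them or within 20 kb was taken. They and the gene lists used below were chosen with earlier results of these data known. How far that choice shaped the shares set beside the background was not tested. A summit is the base of highest pile-up in a called peak. The libraries came from chromatin immunoprecipitation of thymus of mice aged 4 weeks that carried the p53 AD allele on both chromosomes in the germline, an allele whose p53 protein forms dimers. There were 2 p53 libraries and 1 PPAR-alpha library, all of this genotype, with no wild-type thymus among them. An input library of the same genotype was not analysed here. Read length was 50 nt for p53 and 75 nt for PPAR-alpha, so the antibody and the read length cannot be told apart. No label says that the p53 replicates came from separate mice, so their differences are a spread between libraries that may be technical.

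The CD3 gamma, delta and epsilon chains, encoded by Cd3g, Cd3d and Cd3e, and the zeta chain, encoded by Cd247, carry the cytoplasmic tyrosine motifs through which the T cell receptor signals. Pre-T alpha, encoded by Ptcra, pairs with the receptor beta chain in immature thymocytes and forms with CD3 the pre-T cell receptor, whose signal lets the cells expand and move on to the stage with both CD4 and CD8. In mice that lack a CD3 chain, loss of p53 allows thymocytes to pass this checkpoint. Enhancers active in T cells have been described at the 3′ sides of the human CD3D and CD3E genes and upstream of mouse Ptcra.

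Summits lay on the CD3 genes themselves and at neighbours of Ptcra, so the promoters of all 5 are given first, to show the bases under the summits at Cd3e and Cd3g and the 3 promoters that held none. Each line is the stretch of 250 bases before the annotated start site, 5′ to 3′ on the gene's strand, from the RefSeq promoter table of GRCm38.p6. In Cd3e and Cd3g the capitals mark a summit base and the 10 bases on either side of it. That summit was a p53 summit of both replicates at Cd3e and a PPAR-alpha summit at Cd3g.
Cd3e, chr9:45009612-45009861, minus strand: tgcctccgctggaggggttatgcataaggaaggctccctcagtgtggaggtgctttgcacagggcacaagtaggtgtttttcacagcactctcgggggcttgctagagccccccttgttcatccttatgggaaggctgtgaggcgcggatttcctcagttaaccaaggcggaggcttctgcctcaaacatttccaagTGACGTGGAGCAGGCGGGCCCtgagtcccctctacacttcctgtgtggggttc
Cd3g, chr9:44980432-44980681, minus strand: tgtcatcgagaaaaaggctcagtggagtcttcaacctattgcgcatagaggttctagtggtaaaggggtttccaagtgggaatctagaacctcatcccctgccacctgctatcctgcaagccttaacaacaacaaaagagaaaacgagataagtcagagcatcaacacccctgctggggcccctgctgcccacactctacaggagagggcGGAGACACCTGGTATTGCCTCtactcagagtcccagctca
In the promoters of Cd3d, Cd247 and Ptcra the capitals mark E boxes, CANNTG, the sequence that E proteins bind.
Cd3d, chr9:44981536-44981785, plus strand: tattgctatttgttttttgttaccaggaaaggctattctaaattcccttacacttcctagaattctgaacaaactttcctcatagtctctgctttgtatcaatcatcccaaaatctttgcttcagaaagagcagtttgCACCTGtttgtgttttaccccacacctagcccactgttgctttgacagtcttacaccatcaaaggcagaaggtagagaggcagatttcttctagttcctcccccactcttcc
Cd247, chr1:165788431-165788680, plus strand: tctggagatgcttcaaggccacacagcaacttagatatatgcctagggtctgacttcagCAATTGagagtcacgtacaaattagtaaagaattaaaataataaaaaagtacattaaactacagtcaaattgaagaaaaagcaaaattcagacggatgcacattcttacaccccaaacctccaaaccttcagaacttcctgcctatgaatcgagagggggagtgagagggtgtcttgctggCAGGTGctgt
Ptcra, chr17:46763713-46763962, minus strand: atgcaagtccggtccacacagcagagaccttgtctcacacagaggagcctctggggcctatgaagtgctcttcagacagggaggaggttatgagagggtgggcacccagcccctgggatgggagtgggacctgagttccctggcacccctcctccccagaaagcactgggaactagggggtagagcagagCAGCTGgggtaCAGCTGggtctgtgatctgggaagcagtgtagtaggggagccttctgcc

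The p53 lists held 3608 summits in replicate 1 and 4767 in replicate 2, and the PPAR-alpha list held 4070. The score of a summit is the authors' own, taken here for a −log10 significance value, and serves only to rank summits within a list, because the read depth is unknown. Scores took few values, 75 and 76 in the p53 lists and 116 in the PPAR-alpha list, so equal scores are common. The median score was 3.99 and 3.62 in the p53 lists and 4.70 in the PPAR-alpha list.

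All 5 genes had a summit within 20 kb in each list. The background over all protein-coding genes was 20.8% in p53 replicate 1, 25.7% in p53 replicate 2 and 20.4% in PPAR-alpha, and 9.88% of genes had one in all 3 lists. The genes accounted for 11 and 14 p53 summits in replicates 1 and 2 and for 10 PPAR-alpha summits, 35 in all. The Cd3g, Cd3d and Cd3e genes are neighbours and share most of their summits, so they are not independent counts. Inside the gene itself, a summit lay in 4 of 5 genes in each p53 list, namely Cd3e, Cd3d, Cd3g and Cd247, against 9.48% and 11.6% of all genes. In PPAR-alpha it lay in 3 of 5, without Cd3g, against 9.36% of all genes. Those 3, Cd3e, Cd3d and Cd247, had one inside in all lists, as did 3.19% of all genes. Within 5 kb the counts were 4 and 5 of 5 for p53 and 4 of 5 for PPAR-alpha, and 4 of 5 in all lists, where the background was 14.6%, 18.3%, 14.3% and 6.05%. Ptcra made the difference, since its only summit within 5 kb was in p53 replicate 2.

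The 3 CD3 genes on chromosome 9 carried a compact group of summits. Their shared window of 80.1 kb held 5 and 6 p53 summits and 5 PPAR-alpha summits. That is 6.24 and 7.49 p53 summits and 6.24 PPAR-alpha summits per 100 kb, where the windows of all protein-coding genes averaged 0.337, 0.442 and 0.347. The shorter window of Ptcra, with no summit inside that gene, had 2.08 and 6.24 p53 summits and 4.16 PPAR-alpha summits per 100 kb. A density above the average is therefore not particular to the CD3 genes. Apart from the single summit at Cd3e in each list, they lay from the first part of Cd3g to just past the far end of Cd3d, genes that are transcribed away from each other from start sites 1355 bp apart. There, neighbouring summits at most 5 kb apart formed a run of 4 in p53 replicate 1, of 5 in p53 replicate 2 and of 4 in PPAR-alpha. Runs of at least 4 were rare, 30 and 49 in the whole p53 lists and 45 in the PPAR-alpha list. The group also stood by itself. The next summit beyond the window was 29854 bp past Cd3e, at 45039517 beside Mpzl2 in p53 replicate 2 with score 2.37, and on the other side the nearest were 48728 bp from Cd3g in p53 replicate 2 and 48655 bp in PPAR-alpha, at the gene Atp5l.

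**Figure D1:**
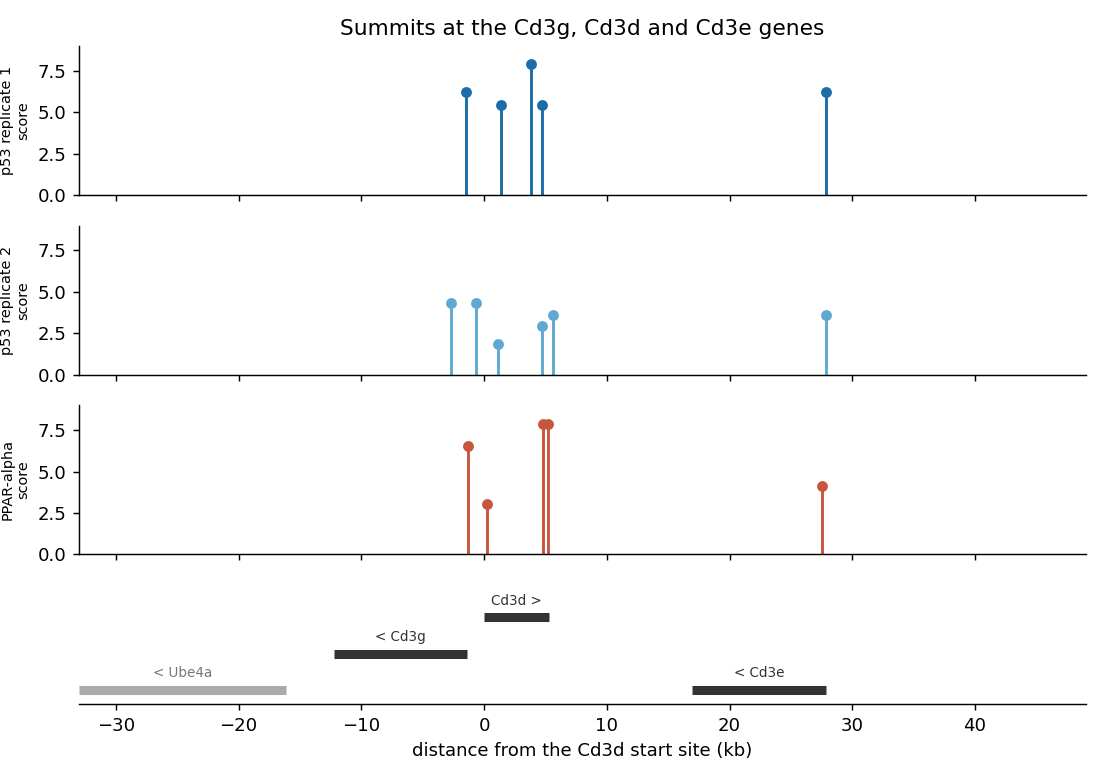
Summits at the Cd3g, Cd3d and Cd3e genes, with the distance from the Cd3d start site in kb on the horizontal axis and the deposited score on the vertical axis, 1 row for each library, and genes as bars below with arrows for their direction. Each list has a group over Cd3g and Cd3d and a single summit at the start of Cd3e, and the rest of the window, Ube4a included, is empty.

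Cd3g, whose chain pairs with epsilon, is on the minus strand at chr9:44969572-44980431. In p53 replicate 1 a summit lay at position 44980350, 81 bp inside the gene from its start site, with score 6.24. In PPAR-alpha one lay at position 44980461, 30 bp upstream of the start site, with score 6.55. These summits were 111 bp apart on either side of the start of transcription. The p53 replicate 2 list had none there. Its summits lay at 44979080, 1351 bp inside Cd3g, and at 44981110, between Cd3g and Cd3d, both with score 4.33. The PPAR-alpha summit base is the last base of an E box, CACCTG at −35 to −30 counted from the start site. E boxes were the commonest of the searched motifs, in 69.0% of 21263 promoters of 300 bases.

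Cd3d, which also pairs with epsilon, lies on the plus strand at chr9:44981769-44987052 and had summits along its length. Near its 3′ end all 3 lists had a summit within a span of 41 bp. The position was 44986518 in p53 replicate 1 with score 5.45, 44986535 in p53 replicate 2 with score 2.97, and 44986559 in PPAR-alpha with score 7.88. It was the only site within 20 kb of the CD3 genes and Cd247 at which all 3 lists met within 100 bp. The distance to the annotated end of the gene was 534, 517 and 493 bp. PPAR-alpha had another summit of the same score at 44987015, 37 bp before the end, and p53 replicate 2 had one at 44987374, 322 bp past it, with score 3.62.

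At the start of Cd3d the lists differed. The nearest summit to it in p53 replicate 1 was at 44983171, 1385 bp into the gene, with score 5.45, and in p53 replicate 2 the one at 44981110, 676 bp upstream. PPAR-alpha had one at 44982041, 255 bp into the gene, with score 3.06. Another p53 replicate 2 summit, at 44982952, lay 219 bp from 44983171, with score 1.83. The highest p53 score at the CD3 genes was 7.93, in replicate 1 at 44985605, and no other list had a summit within 500 bp of it.

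Cd3e encodes the epsilon chain, which every CD3 dimer with gamma or delta contains. It lies on the minus strand at chr9:44998735-45009663. Both p53 lists placed their summit on the same base, 45009654, 43 bp upstream of the start site of the promoter table, with score 6.24 in replicate 1 and 3.62 in replicate 2. Across the lists, 12 of the 3608 summits of p53 replicate 1 coincided to the base with one of replicate 2, or 0.333% (exact 95% interval 0.172 to 0.580%). The PPAR-alpha summit lay 373 bp away at 45009281, 330 bp inside the gene, with score 4.13. The start site of the promoter table lies inside the annotated gene, whose end on this side is 45009663, so the p53 base is counted both as inside the gene and as upstream of that start site. The PPAR-alpha summit lay on the other side of the start site. An E box, CAAGTG, stands at −57 to −52 in the printed promoter. No list had a summit in the 11682 bp between the 3′ ends of Cd3d and Cd3e beyond the one 322 bp past Cd3d.

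Cd247 encodes the zeta chain, which is made from a separate locus and joins the receptor last. It spans 91202 bp on the plus strand at chr1:165779952-165871153, and a longer gene takes up more summits by its length alone. It held 5 and 5 p53 summits and 3 PPAR-alpha summits, all inside the gene, or 3.81 and 3.81 p53 summits and 2.29 PPAR-alpha summits per 100 kb of window. The start site of its promoter table, 165788681, lies inside the annotated gene, whose end on this side is 165779952. No list had a summit between these positions. Just downstream of that start site each list had a summit. It lay 125 bp in at 165788806 with score 2.74 in p53 replicate 1, 235 bp in at 165788916 with score 6.72 in p53 replicate 2, and 100 bp in at 165788781 with score 10.7 in PPAR-alpha. The PPAR-alpha and p53 replicate 1 summits were 25 bp apart, and the p53 replicates were 110 bp apart, so the 3 do not form a single site at 100 bp.

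Farther inside Cd247, p53 replicate 2 had a summit at 165845042 with score 1.83, above 2.60% of its list. At 165845064, 22 bp from it, PPAR-alpha had the highest score at any of the 5 genes, 18.0, above 93.1% of its list. The same place thus ranked near the bottom of the p53 replicate 2 list and near the top of the PPAR-alpha list, and p53 replicate 1 had no summit within 500 bp of either. Both positions also lie in Gm32999, a long noncoding RNA gene annotated on the opposite strand inside Cd247. Gm32999 also held the summits at 165841445 (p53 replicate 2, score 1.83) and 165841003 (PPAR-alpha, score 4.13), 442 bp apart. Toward its start, p53 replicate 1 had 165848317 with score 3.34 and p53 replicate 2 had 165848626 with score 3.62, 309 bp apart.

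The other summits of Cd247 belonged to p53 alone. Replicate 1 had 165802247 with score 2.18 and 165802889 with score 5.45, with no partner within 500 bp. The p53 lists had summits 191 bp apart at 165828139 (replicate 1, score 2.18) and 165828330 (replicate 2, score 1.83). These were among the weakest of their lists, where 3.10% and 2.60% of summits scored lower. Creg1 and Pou2f1, the flanking genes, had no summit in the part of them that fell in the window, where Pou2f1 overlaps the end of Cd247.

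Ptcra, at chr17:46755663-46763712 on the minus strand, had no summit inside it in any list, and none within 1 kb of its start site. Every summit of its window lay nearer to another protein-coding gene. On the upstream side the nearest were a p53 replicate 2 summit 9246 bp away at 46772958 with score 2.97 and a PPAR-alpha summit 9548 bp away at 46773260 with score 3.58, both inside 2310039H08Rik. Farther upstream all 3 lists met within 80 bp at the start of Rpl7l1, a gene related to a ribosomal protein. The positions there were 46782782 in p53 replicate 1 with score 2.74, 46782736 in p53 replicate 2 with score 3.62 and 46782816 in PPAR-alpha with score 3.58. This site is just inside the 20 kb limit, 19070, 19024 and 19104 bp from Ptcra and 126, 80 and 160 bp from the start of Rpl7l1. On the other side, p53 replicate 2 had a summit at 46752895 with score 3.62, 2768 bp from Ptcra and 182 bp from Cnpy3, a chaperone gene for Toll-like receptors. Ptcra counted as near a summit within 20 kb in each list through these neighbours, and the next summits outside the window were 50287 bp or more away.

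**Figure D2:**
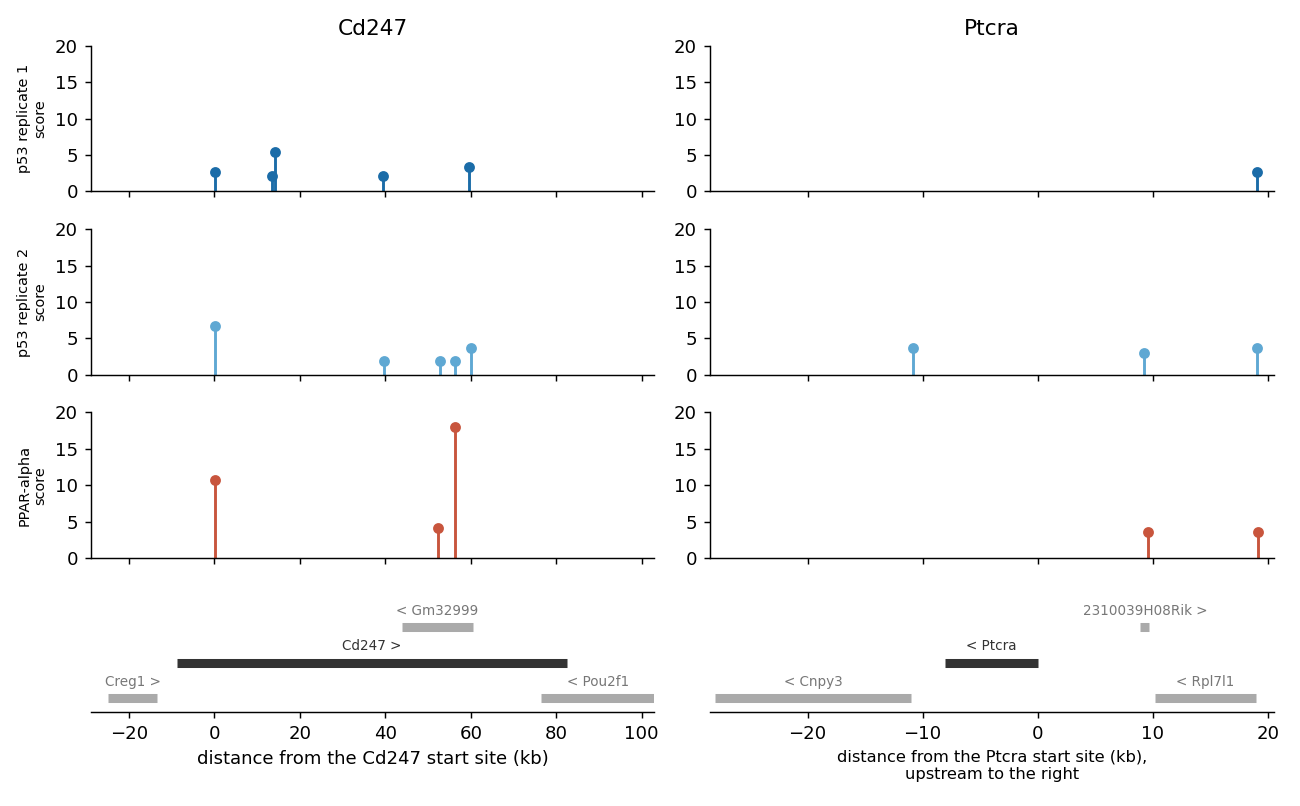
Summits at Cd247 (left) and Ptcra (right), with the distance from the gene's start site in kb on the horizontal axis and the deposited score on the vertical axis, 1 row for each library and genes as bars below. Cd247 has a summit just downstream of its start site in each list and the PPAR-alpha summit of score 18.0 over Gm32999. That start site lies inside the annotated gene. The Ptcra gene is bare and its window's summits sit at Cnpy3, 2310039H08Rik and Rpl7l1.

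By the number of summits within 20 kb, Cd3e had 5 and 6 in the p53 lists and 5 in PPAR-alpha. As many or more were found at 0.288% and 0.242% of all protein-coding genes in the p53 lists and at 0.539% in PPAR-alpha. Cd3d and Cd3g each had 4 and 5 in the p53 lists and 4 in PPAR-alpha, reached by 0.658%, 0.471% and 0.891% of genes. For Cd247 with 5, 5 and 3 the shares were 0.288%, 0.471% and 2.14%. Ptcra stood lower, with 1, 3 and 2 summits, reached by 20.8%, 2.65% and 5.75% of genes. Cd3e had the highest count in each list, equalled by Cd247 in p53 replicate 1, and Ptcra the lowest. The count of Cd3e came mostly from its neighbours. In each list only 1 of its summits lay within 5 kb, and the others were 11361 bp or more away, nearest to Cd3g or Cd3d. Within 5 kb, Cd3d had 4 and 5 p53 summits and 4 PPAR-alpha summits. Over all genes the median was 0.

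**Figure D3:**
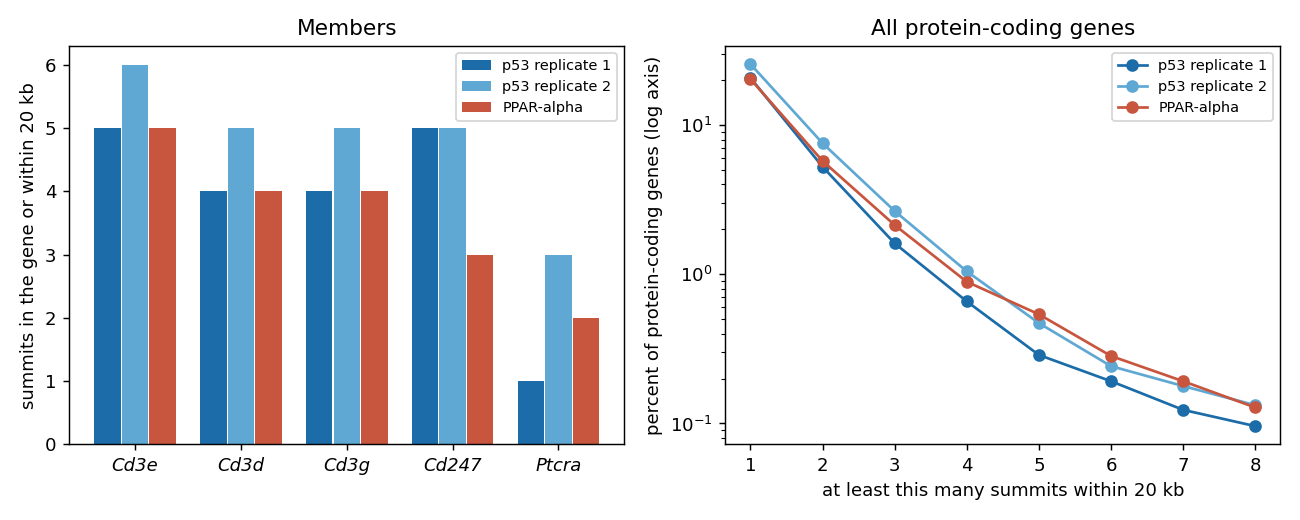
Number of summits inside or within 20 kb of each of the 5 genes by library (left, bars from 0), and the percent of all protein-coding genes with at least a given number of summits in the same window (right, log axis). The 4 CD3 genes reach 3 to 6 summits, where the right panel falls to between 0.242% and 2.14% of genes, and Ptcra reaches 1 to 3.

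Scores of these summits were moderate. The median was 5.45 and 3.62 over the 11 and 14 p53 summits and 5.34 over the 10 PPAR-alpha summits, beside list medians of 3.99, 3.62 and 4.70. No p53 summit and 2 PPAR-alpha summits, both in Cd247, scored 10 or more, as did 5.38% and 4.30% of the p53 lists and 16.0% of the PPAR-alpha list. The p53 replicates ranked the loci differently. In replicate 1 each of the 5 summits at the Cd3g, Cd3d and Cd3e genes scored 5.45 or more, with at least 71.3% of the list below it. In replicate 2 the 6 summits there scored 1.83 to 4.33, and the highest score of all 5 genes was the 6.72 just downstream of the Cd247 start site.

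**Figure D4:**
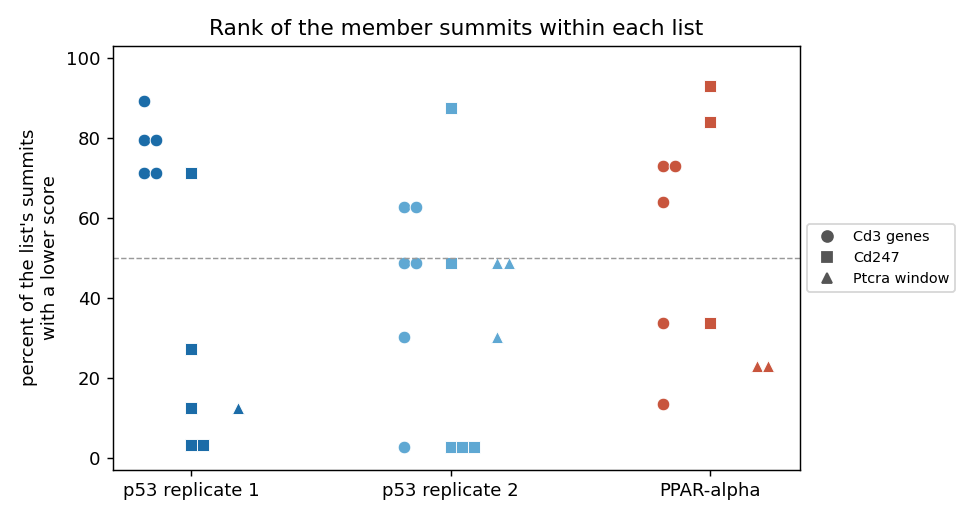
Rank of each summit of the 5 genes within its own list, as the percent of the list's summits with a lower score, by library, with symbols for the locus and a dashed line at the middle of the list. The CD3 gene summits of p53 replicate 1 sit above 71% and those of p53 replicate 2 below 63%, while Cd247 spans nearly the whole range.

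How far did the lists share these summits? Within 100 bp, the 35 summits formed 28 sites. Of these, 2 were in all lists, at the end of Cd3d and at Rpl7l1, 3 were in a pair of lists and 23 in a single list. A p53 replicate 2 summit lay within 100 bp of 3 of the 11 replicate 1 summits, or 27.3% (exact 95% interval 6.02 to 61.0%), beside 20.8% of the whole replicate 1 list. A PPAR-alpha summit did so for 3 of 11 in p53 replicate 1 (27.3%, 6.02 to 61.0%) and 3 of 14 in replicate 2 (21.4%, 4.66 to 50.8%), beside 17.4% and 15.6% of the whole lists. Further partners lay farther off. Within 500 bp, 7 of 11 replicate 1 summits had a replicate 2 partner (63.6%, 30.8 to 89.1%), beside 43.5% of the list, and 5 of 11 had a PPAR-alpha partner (45.5%, 16.7 to 76.6%), beside 38.2%. Of the p53 replicate 2 summits, 8 of 14 had a PPAR-alpha partner within 500 bp (57.1%, 28.9 to 82.3%), beside 35.1%. Counted from the other side, 7 of 14 p53 replicate 2 summits had a replicate 1 partner (50.0%, 23.0 to 77.0%), beside 33.3%. Of the PPAR-alpha summits, 6 of 10 had a p53 replicate 1 partner (60.0%, 26.2 to 87.8%), beside 33.9%. A p53 replicate 2 partner was found for 8 of 10 PPAR-alpha summits (80.0%, 44.4 to 97.5%), beside 40.5%. The intervals cover counting error only. Of those given, each includes the share of the whole list except the last, so that exception depends on the direction of counting. Summits of 1 locus are not independent, and no test was made.

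What did the promoters share? All 5 had few CpG dinucleotides, 8 at Cd3e, 4 at Cd3g, 3 at Cd247, and 1 each at Cd3d and Ptcra, in 300 bases. The median was 13 over all promoters of protein-coding genes, and 26 and 25 over the promoters that held a p53 summit and 25 over those that held a PPAR-alpha summit. Of the promoters with under 10 CpG, 1.91% and 2.35% had a p53 summit within 1 kb of the start site and 1.98% had a PPAR-alpha summit. Of those with 10 or more, 15.9%, 20.2% and 14.9% did. Of the 5 genes, 3 and 4 had a p53 summit that near and 4 a PPAR-alpha summit, where 10.2%, 13.0% and 9.59% of 17492 protein-coding genes with an annotated start site did. In all lists 3 of 5 did, Cd3e, Cd3g and Cd247, beside 3.21% of genes. In p53 replicate 2, Cd3d and Cd3g counted through the same summit, 44981110, which lay 676 bp upstream of Cd3d and 679 bp upstream of Cd3g. The CD3 genes with such a summit therefore belonged to the class under 10 CpG, which less often had one, and Ptcra, with 1 CpG, had none. Cd3e stood near the upper edge of that class. Of promoters with 8 to 11 CpG, 6.17% and 7.68% had a p53 summit that near and 5.52% a PPAR-alpha summit. At its neighbour Rpl7l1, whose promoter held a summit of each list, the count was 16.

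**Figure D5:**
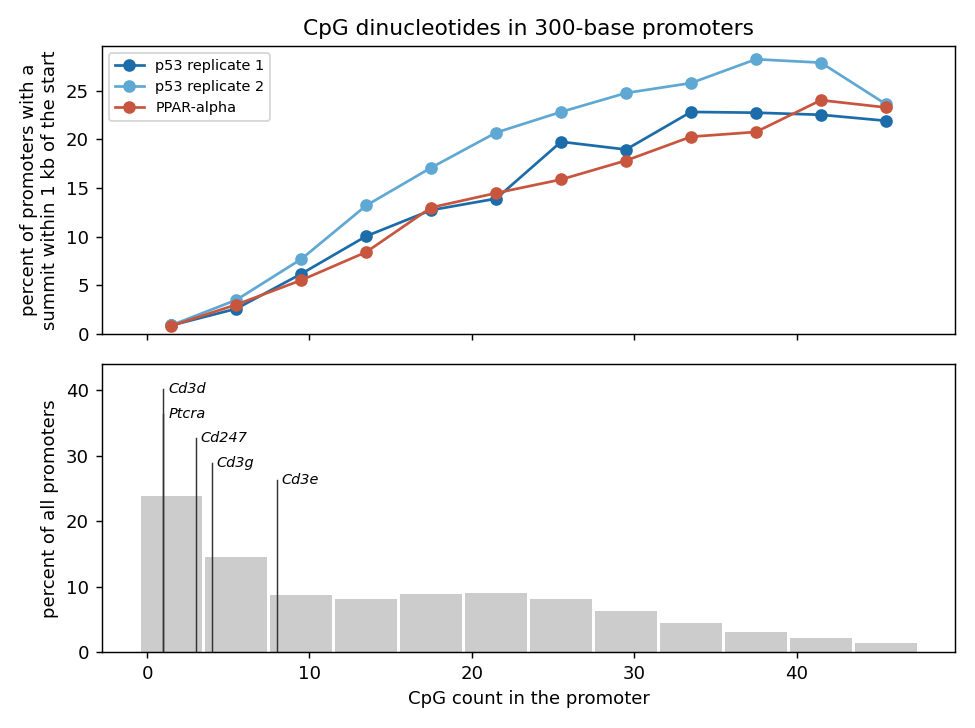
Percent of promoters with a summit within 1 kb of the start site by CpG count, in bins of 4 up to 47 CpG, for each library (top), and the percent of all promoters in each bin with the counts of the 5 genes as labelled lines (bottom). The share with a summit is lowest in the first bins and higher at high CpG counts, levelling off or falling back in the last bins, and all 5 genes stand at the low end, at 8 CpG or fewer.

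Motifs were searched on both strands of the 300-base promoters, which end 50 bases after the start site. In those of the 5 genes lay only the p53 summits at Cd3e and the PPAR-alpha summit at Cd3g. The summits at the end of Cd3d and all those of Cd247 lay outside them, so the search does not bear on these. The nuclear receptor half-site AGGTCA, held by 14.7% of all promoters, and the DR1 motif of PPAR, that half-site repeated after a spacer of 1 base, held by 0.0470%, were in none of the 5. The core of the p53 half-site was searched only in the form CATG, in 56.3% of promoters. That form was found once in Cd3d and once in Cd3g, and other forms of the core were not searched. The TCF/LEF motif CTTTGA, in 14.4%, was found at a pair of places in Cd3d, at −73 to −68 and −54 to −49, and once in Cd247. The Cd3g promoter held the GATA motif GATAAG and the RBPJ motif GTGGGAA, present in 6.92% and 6.07% of promoters, and its RBPJ match overlaps an E box. Ptcra had 3 E boxes, all CAGCTG. The ETS form CCGGAA, in 18.7% of promoters, the RUNX motif TGTGGT, in 15.0%, and the TATA motif TATAAA, in 12.6%, were in none of the 5. The ETS core GGAA was searched only within CCGGAA, so its absence here does not cover GGAA in other flanks. A match is only a match of letters, and no match says nothing of a factor.

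Other genes of the pathway were looked up in the same window. Of 16 genes for the kinases, adaptors and coreceptors next to the receptor, 15 and 13 had a p53 summit and 14 a PPAR-alpha summit within 20 kb, and 13 had one in all lists, where the background was 20.8%, 25.7%, 20.4% and 9.88%. Lcp2, for the adaptor SLP-76, had the highest score of the list in p53 replicate 1, 10.7, and the phosphatase gene Ptprc in p53 replicate 2, 8.48. In PPAR-alpha, Ptprc had the highest, 32.0, at a summit 16053 bp outside the gene, and the kinase gene Lck had 13.8. Fyn had none in any list. Of 12 regulators of transcription in early T cells, 11 and 10 had a p53 summit and 11 a PPAR-alpha summit, beside the same 20.8%, 25.7% and 20.4%. Tcf12, for the E protein HEB, led the p53 lists with 13.6 and 15.3, Lef1 led PPAR-alpha with 23.4, and Hes1 had none. Summits counted here could lie nearer to another gene. The highest for Tcf3 in p53 replicate 1 was nearest to Mbd3, and that for Tcf7 in p53 replicate 2 to Skp1. Tcf3 and Tcf7 also held a summit inside them in those lists. The median number of summits per gene was 2 and 1.5 in the p53 lists and 2 in PPAR-alpha for the first list, and 3, 5.5 and 3 for the second, beside 0 over all genes. These medians make no allowance for gene length, and a longer gene takes up more summits by its length alone.

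Counterparts of CD3 and pre-T alpha in other lineages were looked up in the same way. These were 8 genes, Cd79a, Cd79b, Vpreb1, Vpreb3 and Igll1 of the B cell receptors and Fcer1g, Tyrobp and Hcst for signalling adaptors of natural killer and myeloid cells. Within 20 kb, 1 and 5 of the 8 had a p53 summit and 5 a PPAR-alpha summit. Neighbouring genes shared summits, as Tyrobp and Hcst did in p53 replicate 2 and Vpreb1 and Igll1 in PPAR-alpha. The genes are therefore not independent counts. The background in that window was 20.8%, 25.7% and 20.4%. Inside the gene, 0 of 8 had one in each list, where the background was 9.48%, 11.6% and 9.36%, so a count of 0 is near it. The highest summits near Cd79a were nearest to Rps19 in both p53 lists, with scores 12.6 and 5.08, and to Arhgef1 in PPAR-alpha, with score 7.88. Those near Vpreb1 were nearest to Top3b, and those near Tyrobp to Nfkbid. No test was made between these lists, which were few and chosen by name.

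Peak lists hold no expression, so the tissue could be checked only by the genes near which summits were called. Of 9 thymocyte genes, which include the 5, all had a summit within 20 kb in each list. Ptcra counted through its neighbours, and Cd4, Cd8a and Lck were also among the 16 genes above. This count therefore largely repeats earlier ones and is not a separate check. Of 5 B cell markers 2 and 1 had a p53 summit and 2 a PPAR-alpha summit, and of 5 myeloid markers 1, 1 and 2 did. Of 5 markers of thymic epithelium 0, 1 and 0 did, with Foxn1, Epcam, Krt5 and Krt8 at none in any list, and of 5 adipocyte markers 2, 2 and 2. With a background of 20.8%, 25.7% and 20.4% of all genes, counts of 0 to 2 of 5 are near it and say little of the tissue. Their part in the summits at the CD3 genes was not tested.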

How the data were processed

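The authors deposited 1 summit list per ChIP library, whose score has the form of the −log10 values that MACS2 writes for each called peak, although no label states it. The submitters' processing notes list MACS2 2.1.2, Bowtie2 2.3.4.2 and Picard 2.9.0 and give no role or setting. How peaks were thresholded, whether the input was the control, and the read numbers are not given, so depth is unknown. The notes name the human build GRCh38. Within 1 kb of a mouse GRCm38.p6 gene boundary lay 49.2% (p53 replicate 1), 49.0% (p53 replicate 2) and 42.0% (PPAR-alpha). After moving all summits by 20 kb either way the shares were 6.61% to 7.68%, so GRCm38 was used.

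Positions are counted from 1. A start site is that of the RefSeq promoter table, which gave 1 for each of the 5 genes. Summits of different lists at most 100 bp apart, linked in a chain, were a site. Intervals are exact Clopper-Pearson 95% intervals (SciPy 1.17.1, Python 3.11.15). No test was run, since a group has at most 2 libraries and genes are not replicates. Windows, score, distance, dense runs and nearest gene were varied. Window counts, site linkage and run removal were tested on simulated data. The 5 genes and the lists were chosen with earlier results of these data known. Named genes were the 5, every neighbour nearer to one of their summits, and up to 4 per list by score. All listed genes matched the gene table. The values of 1 listed gene are not reported here.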

Additional observations from a re-analysis of the deposited data

How the results depend on the processing

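Of 64 recomputed counts 44 stayed within 1.5 times the reported one and 20 did not. At scores of 5 or more, there were 6 and 1 p53 and 5 PPAR-alpha summits, for 4 and 1 genes in the p53 lists and 4 in PPAR-alpha, with 0 sites in all lists, 0 in both p53 lists and 1 with p53 and PPAR-alpha. Inside the genes only, p53 replicate 2 had 9 summits and PPAR-alpha had summits in 3 genes. Without runs of 5 or more summits at most 5 kb apart, p53 replicate 2 lost the run at Cd3g and Cd3d, which left 9 summits, 3 genes and 1 site in all lists. Sites within 500 bp numbered 4 in all lists, 7 in both p53 lists and 8 with p53 and PPAR-alpha, and within 1000 bp 5, 7 and 8. Within 5 kb of the genes 1 site was in all lists, and 1 where a summit counted only for its nearest protein-coding gene, an alternative chosen after seeing the data, since the Rpl7l1 site is then left out. Without p53 replicate 1 or without p53 replicate 2, the sites shared by the remaining p53 list and PPAR-alpha numbered 3 and 3, where 2 were in all lists and 4 had either p53 list. No paired analysis was possible because the PPAR-alpha group has a single library and no test was run. PPAR-alpha was measured in a single library, and a summit missing from a list may lie under its unknown threshold.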
